A study of Mus musculus with 10 samples.

Results

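The endothelin system was described in the 3 main endocrine cell types of the mouse islet through its 7 genes: the peptides Edn1, Edn2 and Edn3, the converting enzymes Ece1 and Ece2, and the receptors Ednra and Ednrb. The genes were chosen by name, and all 7 are among the 19213 gene entries of the deposited table. The family was proposed when its levels in delta, beta and alpha cells were already known, so its differences between cell types are given as a description, without a test. Values are RPKM, the reads of a gene per kilobase of its length and scaled to the total reads of the library.

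Endothelins are short vasoactive peptides. Each is cut from a longer precursor, first by furin-type proteases into big endothelin and then by an endothelin converting enzyme into the mature peptide, which has 21 residues. Ednra binds endothelin 1 and 2 more strongly than endothelin 3, whereas Ednrb binds all of them alike, and both receptors couple to G proteins of the Gq and Gi families. The pair Edn3 and Ednrb is known for its part in the development of neural crest cells, and endothelin 1 is best known as a constrictor of blood vessels made by endothelium.

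RNA was sequenced from cells sorted by FACS from islets of adult mice. All animals were triple transgenic: they carried mIns1-H2b-mCherry, a red nuclear reporter under the mouse Ins1 promoter that marks beta cells, a floxed YFP allele, and either Sst-Cre or Gcg-cre, which switch YFP on in cells where the Sst or the Gcg promoter drives Cre. Delta cells (YFP with Sst-Cre) gave 2 libraries, 1 per sex, beta cells (mCherry) gave 5 libraries, 3 female and 2 male, and alpha cells (YFP with Gcg-cre) gave 3 libraries, 1 female and 2 male. Per the labels, islets from 10 to 12 males or females were combined, kept overnight at 5.5 mM glucose and then dissociated. There was no treatment, and the labels do not say from which cross a beta library came, nor whether every library had its own pool of islets. Any p-value therefore measures the spread over these libraries, part of which may be technical.

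Library totals recovered from the RPKM values were 16688097 to 26684086 reads, so 1 RPKM stood for 16.7 to 26.7 reads per kb. The sorts matched their labels: Gcg, which encodes proglucagon, stood in the beta libraries at 0.182% to 1.12% of its alpha mean, and Ins2, an insulin gene, in the other sorts at 0.648% to 1.2% of its beta mean. The delta sort was less clear of alpha transcripts, with Gcg at 8.33% and 9.11% of the alpha mean in delta replicates 1 and 2. Sst, the somatostatin gene, reached 1.91% to 5.19% of its delta mean in alpha libraries.

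The 3 peptides are close relatives, and their genes code for the mature peptide within exon 2 of 5. These stretches of the GRCm38 transcripts are shown because the results turn on which of the 3 peptides was transcribed. They lie on the plus strand at chr13:42303649-42303711 (Edn1), chr4:120161951-120162013 (Edn2) and chr2:174761749-174761811 (Edn3). Capitals mark the 10 of 63 bases at which Edn3 differs from both of the others.
Edn1: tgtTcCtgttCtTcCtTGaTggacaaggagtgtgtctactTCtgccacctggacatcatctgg
Edn2: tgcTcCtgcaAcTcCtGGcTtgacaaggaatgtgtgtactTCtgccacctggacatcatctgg
Edn3: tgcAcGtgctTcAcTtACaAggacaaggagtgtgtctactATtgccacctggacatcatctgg
The Edn3 stretch differs from that of Edn1 at 13 bases and from that of Edn2 at 15, and 6 of its 21 codons specify another residue than in either. Edn1 and Edn2 differ from each other at 10 bases and in 3 residues. Most of these differences fall in the first part of the peptide, while the codons of its tail are shared.

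Of the 3 peptides, Edn3 was the one with a substantial level, and it was an alpha cell transcript. Edn3 (ENSMUSG00000027524, chromosome 2, 174760619 to 174784042, protein coding) stood at 70.3, 67.4 and 69.4 RPKM in alpha replicates 1 to 3. It stood at 8.71 and 8.68 RPKM in the delta libraries and at 0.192, 0.371, 0.624, 0.448 and 1.16 RPKM in beta replicates 1 to 5. The 3 cell types did not overlap, in the order alpha, delta, beta. These values rest on 3390 to 3607 reads in each alpha library, 480 and 524 in the delta libraries and 15 to 92 in the beta libraries.

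The Edn3 means were 69.1 ± 1.47 RPKM in alpha (SD, n = 3), 8.69 ± 0.0193 in delta (n = 2) and 0.559 ± 0.369 in beta libraries (n = 5), so alpha exceeded beta by 124 times and delta by 7.94 times. On the log2(RPKM + 1) scale, which understates differences of genes with low values, alpha minus beta was 5.55 (SE 0.17), delta minus beta 2.68 (SE 0.19) and delta minus alpha -2.87 (SE 0.21). The comparisons share libraries pairwise and are not independent of each other. The alpha minus beta difference ranked 4th among 12700 genes in the direction of higher in alpha. By mean level Edn3 was gene 579 of 19213 in alpha libraries, 7402 in delta and 12158 in beta libraries.

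**Figure D1:**
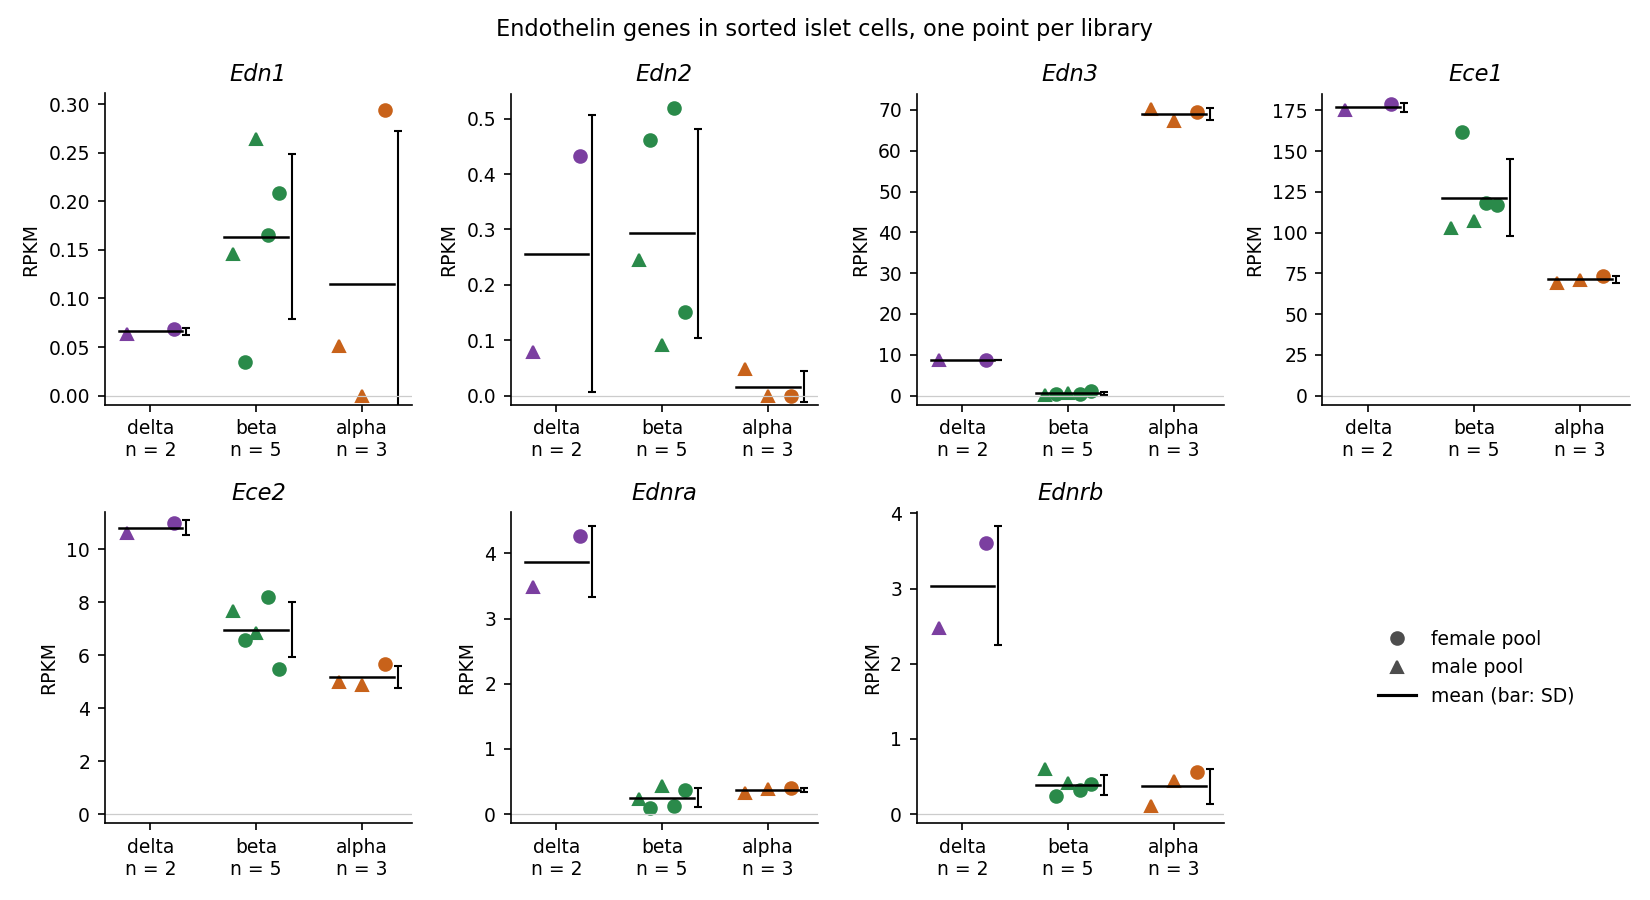
RPKM (linear axes) of each endothelin gene in every library by cell type; circles are female and triangles male pools, black lines are means and side bars SD, cut at the foot of the axis. Edn3 is near 69 RPKM in alpha libraries alone, Ece1 is high in all, and both receptors are highest in the 2 delta libraries.

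Outside the alpha sort, Edn3 and Gcg were both higher in the delta than in the beta libraries. In delta replicates 1 and 2 Edn3 stood at 12.6% of its alpha mean in each, where Gcg stood at 8.33% and 9.11%. In beta replicates 1 to 5 Edn3 stood at 0.278%, 0.537%, 0.904%, 0.649% and 1.68% of its alpha mean, and Gcg at 0.182%, 0.53%, 0.582%, 0.477% and 1.12% of its own. The beta library lowest in Gcg was also lowest in Edn3, and the one highest in Gcg was highest in Edn3. In bulk samples, fewer cells of a type and less RNA per cell cannot be told apart. When the alpha share set by Gcg was taken away, an alternative chosen after seeing the data, Edn3 was 2.95 and 2.39 RPKM in the delta and 0.0051 to 0.386 RPKM in the beta libraries. Which cells of the delta sort carried Edn3 was not tested.

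**Figure D2:**
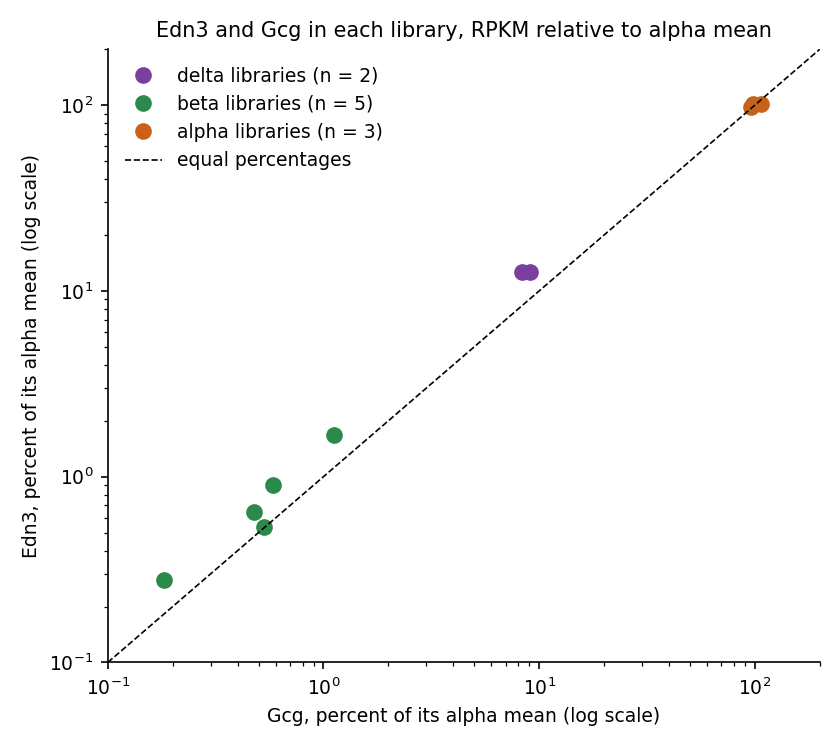
Edn3 against Gcg in each of the 10 libraries, each as percent of its own mean over the alpha libraries (both axes log scale); the dashed line marks equal percentages. Beta points lie at up to 1.68% for Edn3 and 1.12% for Gcg, delta points at 12.6% for Edn3 and 8.33% and 9.11% for Gcg, above the line.

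The genes whose pattern over the 10 libraries was most like that of Edn3 were also alpha cell genes. By the Pearson correlation of log2(RPKM + 1), they were Irx2 (r = 0.9994), Pdk4 (0.9989), Sertm1 (0.9985), Irx1 (0.9985) and Rab3c (0.998). Irx1 and Irx2 encode homeobox factors of alpha cells, Pdk4 a kinase that inhibits pyruvate dehydrogenase, and Rab3c a small GTPase of secretory vesicles. Libraries of one cell type share that type's profile, so such correlations mainly restate the 3 levels. Irx2 had means of 62.8 RPKM for alpha, 9.68 for delta and 1.06 for beta libraries. Those of Irx1 were 59, 7.37 and 0.486 RPKM in the same order, and both genes had the order of Edn3.

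These genes differed in how much of the alpha level was seen in delta libraries. The delta libraries reached 11.9% and 13.1% of the alpha mean for Irx1, and between 11.6% and 12.4% for Pdk4, ranges that adjoin the 12.6% of Edn3. For Irx2 they reached 14.8% to 16%, for Sertm1 24.7% to 26.4% and for Rab3c 27.4% to 28.6%. All 5 stood above the 8.33% and 9.11% of Gcg in both delta libraries.

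**Figure D3:**
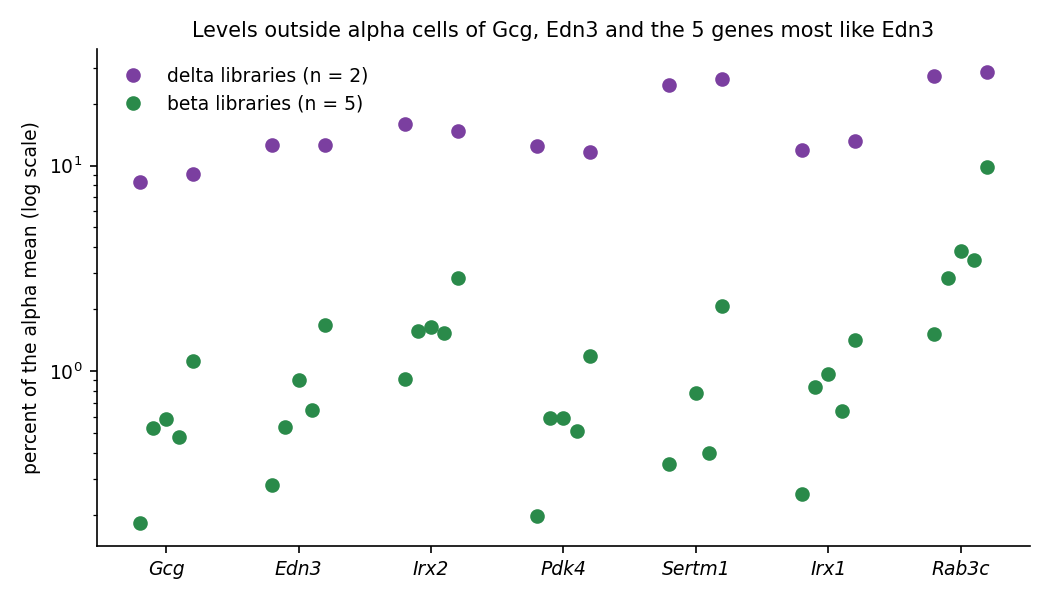
Gcg, Edn3 and the 5 genes most like Edn3 in the delta (n = 2) and beta (n = 5) libraries, as percent of the gene's alpha mean (log axis); 1 beta library with Sertm1 listed at 0 is not drawn. Delta points run from 8.33% for Gcg to 28.6% for Rab3c.

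Few reads were seen for the other peptides in any sort. Edn1 (ENSMUSG00000021367, chromosome 13, 42301476 to 42307990), the endothelin of blood vessels, gave 3 reads in each delta library, 2 to 13 in beta libraries and 0 to 12 in alpha libraries. Its highest level was 0.294 RPKM, in alpha replicate 3, the 1 female alpha library, which held 12 of the 14 alpha reads. Alpha replicate 2 had 0 reads, which allows a level of up to 0.0758 RPKM. The cell types overlapped, and a difference in Edn1 was not tested at these read counts.

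Edn2 (ENSMUSG00000028635, chromosome 4, 120161206 to 120167360) was as scarce. It stood at 0.245, 0.461, 0.0905, 0.519 and 0.151 RPKM in beta replicates 1 to 5, or 2 to 15 reads, and at 0.0796 and 0.433 RPKM in the delta libraries. The 3 alpha libraries held 1 read in all, and the counts of 0 in replicates 2 and 3 allow up to 0.143 and 0.138 RPKM. Beta and delta libraries overlapped. The alpha libraries were listed below both, with 0 or 1 read against 2 or more, but the levels that a count of 0 allows reach above the lowest delta and the lowest beta library. Neither Edn1 nor Edn2 reached 1 RPKM in any library, so they were left out of the fit across genes. Edn3 made up 99.6% to 100% of the summed peptide level in alpha libraries, 94.5% and 98.4% in delta libraries and 32.9% to 76.4% in beta libraries.

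Most markers of endothelium, a known source of Edn1, were low in every sort. Their 11 genes summed to 6.95 to 11.1 RPKM in alpha, 5.34 to 11.7 in beta and 8.34 to 11.1 in delta libraries, with 1 to 3 markers at 1 RPKM or more per library. The junction gene Cdh5 had means of 0.345 RPKM for alpha, 0.493 for beta and 0.231 for delta libraries. Esam, the highest of the 11 by mean in each sort, went in the reverse order. Its means were 6.12 RPKM for alpha, 3.87 for beta and 7.56 for delta libraries. The part of such cells in the Edn1 and Edn2 reads was not tested.

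Around Edn3 on chromosome 2, 1 of the nearest listed genes also differed strongly between alpha and beta cells. Tubb1, a beta tubulin best known from platelets, lies 303 kb before Edn3 and had mean levels of 11.8 RPKM for alpha, 0.877 for beta and 1.24 for delta libraries. Its alpha minus beta log2 difference was 2.85 (SE 0.23, adjusted p = 1.07e-05 by limma). The closest listed gene, Zfp831 at 49.8 kb, was near 0 in all sorts, with means of 0.0241 RPKM or less. Atp5e, a subunit of ATP synthase, had means of 362, 274 and 239 RPKM in that order (alpha minus beta 0.35, SE 0.12, adjusted p = 0.0279). On the other side the nearest listed genes, Gm14393, Gm14440 and Gm14305, averaged at most 0.758 RPKM in any sort. Of these neighbours only Tubb1 and Atp5e passed the filter. Limma called both higher in alpha than in beta cells, as it did 23.7% of all tested genes. A link between Edn3 and its neighbours was not tested.

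Both converting enzymes were transcribed in all 3 cell types, Ece1 far more than Ece2. Ece1 (ENSMUSG00000057530, chromosome 4, 137862237 to 137965229), the main enzyme that turns big endothelin into endothelin, stood at 175 and 179 RPKM in the delta libraries. It stood at 103, 162, 107, 118 and 117 RPKM in beta replicates 1 to 5 and at 69.1, 71.2 and 73.6 RPKM in alpha replicates 1 to 3. The order was delta, beta, alpha without overlap, the reverse of the place of alpha cells for Edn3. By mean level Ece1 ranked 184 of 19213 genes for delta, 349 for beta and 549 for alpha cells.

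For Ece1 the means were 177 ± 3.27 RPKM in delta (n = 2), 121 ± 23.4 in beta (n = 5) and 71.3 ± 2.29 in alpha libraries (n = 3). Delta minus beta was 0.58 (SE 0.14) on the log2 scale, alpha minus beta -0.69 (SE 0.12) and delta minus alpha 1.27 (SE 0.15). RPKM are shares of a library, and 7 hormone genes took 9.81% and 10.6% of the delta, 17.6% to 31.8% of the beta and 27.5% to 30.9% of the alpha reads. With these reads left out, the delta libraries stood at 194 to 201 and the beta libraries at 138 to 211, so that delta and beta overlapped for Ece1. They also overlapped after median-ratio scaling (146 to 154 against 105 to 176), while alpha remained below both under each scaling.

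Ece1 was highest among the beta libraries in beta replicate 2, at 162 RPKM against 103 to 118 in the rest. Hyou1, a chaperone of the endoplasmic reticulum, had the pattern most like that of Ece1 over the libraries (r = 0.9905). Hyou1 stood at 286 RPKM in that same library and at 148 to 164 in the other beta libraries. Ganab, a glucosidase subunit that trims sugars in the endoplasmic reticulum, came next (0.9898) and read 115 there against 78.9 to 92.1 RPKM. The third was Rnf40 (0.9841), a histone ubiquitin ligase.

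Ece2 (ENSMUSG00000022842, chromosome 16, 20629828 to 20646485), a relative that works at acid pH and is best known from neurons and endocrine cells, was lower in all sorts. It stood at 10.6 and 11 RPKM in the delta libraries, 7.67, 6.58, 6.85, 8.18 and 5.48 in beta replicates 1 to 5 and 4.98, 4.88 and 5.67 in alpha replicates 1 to 3. Delta lay above the others, while beta and alpha overlapped. The log2 differences were 0.59 (SE 0.14) for delta minus beta, -0.35 (SE 0.13) for alpha minus beta and 0.94 (SE 0.16) for delta minus alpha. Under median-ratio scaling delta and beta overlapped for Ece2 as well (8.87 to 9.46 against 5.19 to 9.12). Ece1 exceeded Ece2 by 13 to 24.6 times in every library. The annotation has a read-through gene, Gm49333, on the same strand over Ece2, and antisense genes over Ece1, Edn1 and Ednra. The kit named in the labels, TruSeq RNA version 2, does not mark strand, so reads of the antisense genes could not be told apart. How reads shared by Ece2 and Gm49333 were counted is not known from the labels.

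The genes most like Ece2 were Stmn3, a stathmin of neurons (r = 0.9715), Rhoj, a small GTPase (0.967), and Snx33, a sorting nexin (0.9664). The means of Stmn3 were 48.7 RPKM for delta, 26.2 for beta and 15.5 for alpha libraries, the same order as Ece2.

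The receptors were delta cell transcripts of low level. Ednra (ENSMUSG00000031616, chromosome 8, 77663031 to 77724464), the receptor that prefers endothelin 1 and 2, stood at 3.49 and 4.26 RPKM in the delta libraries. It stood at 0.23, 0.101, 0.433, 0.118 and 0.37 RPKM in beta replicates 1 to 5 and at 0.329, 0.39 and 0.393 in alpha replicates 1 to 3. Beta and alpha overlapped, and the lowest delta library was far above both. Reads numbered 257 and 288 in the delta libraries against 9 to 36 in beta and 20 to 25 in alpha libraries.

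Ednrb (ENSMUSG00000022122, chromosome 14, 103814625 to 103844402), the receptor that binds all endothelins and the usual partner of Edn3, stood at 2.48 and 3.6 RPKM in the delta libraries. The beta libraries held 0.595, 0.235, 0.414, 0.326 and 0.396 RPKM, and the alpha libraries 0.11, 0.435 and 0.566 RPKM. Again delta lay above, and beta and alpha overlapped. In reads these were 218 and 291 in delta, 25 to 68 in beta and 8 to 43 in alpha libraries.

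Delta exceeded beta by 15.5 times for Ednra (3.87 ± 0.542 against 0.251 ± 0.148 RPKM) and by 7.72 times for Ednrb (3.04 ± 0.793 against 0.393 ± 0.133). Alpha libraries averaged 0.371 ± 0.0363 and 0.37 ± 0.235 RPKM, 10.4 and 8.2 times below delta. On the log2(RPKM + 1) scale delta minus beta was 1.96 (SE 0.13) for Ednra and 1.53 (SE 0.17) for Ednrb, and alpha minus beta 0.13 (SE 0.12) and -0.01 (SE 0.15). Ednra made up 54.2% and 58.5% of the summed receptor level in delta libraries. Both receptors reached 1 RPKM in delta libraries alone, so they entered the fit through the cell type in which they were high.

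**Figure D4:**
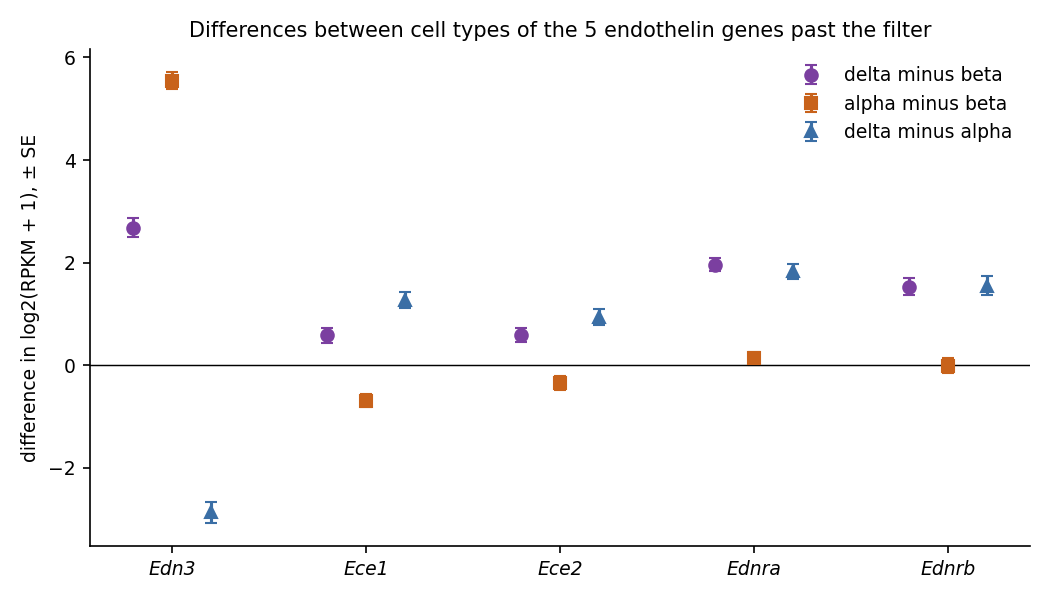
Difference in log2(RPKM + 1) between cell types, with SE from limma, for the 5 endothelin genes that passed the filter on low values. Edn3 is 5.55 higher in alpha than in beta cells, whereas Ednra and Ednrb are higher in delta than in either other type and near 0 between alpha and beta.

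Markers of other cells that usually carry these receptors did not all behave alike in the delta sort. Of 8 markers of Schwann and neural crest cells, where Ednrb is well known, the summed level was highest in delta libraries, at 10.1 and 10.3 RPKM against 2.32 to 2.92 in beta and 4.95 to 5.45 in alpha libraries. In each delta library 2 of these 8 reached 1 RPKM, while 3 and 4 were at 0, among them Foxd3 and Gfap in both, and Sox10 averaged 0.00992 RPKM. The 11 markers of pericytes and mesenchyme, where Ednra is well known, summed to 1.1 and 1.46 RPKM in delta, 0.343 to 1.71 in beta and 3.67 to 4.51 in alpha libraries. None of the 11 reached 1 RPKM in a delta library, and Pdgfrb and Acta2 averaged 0.0668 and 0.0105 RPKM there. The part of such cells in the receptor levels was not tested. The receptors changed little when the alpha share set by Gcg was taken away, to 3.46 and 4.22 RPKM for Ednra and 2.45 and 3.56 RPKM for Ednrb.

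Sox9, a transcription factor of ductal and progenitor cells, had the pattern most like that of Ednra (r = 0.9963), with means of 3.51 RPKM for delta, 0.107 for beta and 0.152 for alpha libraries. In beta libraries Sox9 stood at 0.046, 0.00987, 0.204, 0.0415 and 0.235 RPKM, and the 3 libraries with less Sox9 were also those with less Ednra. Acot7, an acyl-CoA thioesterase (0.9957), and Itih5, a hyaluronan-binding protein (0.9945), followed. Both were also lower in the same 3 beta libraries, so this split was not particular to Sox9. The genes most like Ednrb were Caly, a vesicle protein of neurons (0.9837), 9130221H12Rik (0.9816) and Kcnh3, a potassium channel (0.9802). As for Edn3, such correlations mainly restate the levels of the cell types.

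Over the members that passed the filter, 5 of 5 were higher in every delta than in every beta library, as were 46.4% of all 12700 tested genes. Against alpha libraries, 4 of 5 were higher in every delta library, as were 60% of all tested genes, and Edn3 was lower, as were 11%. Between alpha and beta libraries Edn3 was higher (20.8% of all genes) and Ece1 lower (29.2%), while Ece2, Ednra and Ednrb overlapped. Ednra and Ednrb passed the filter through the delta libraries alone. The count against beta libraries was 3 of 5 after median-ratio scaling, without Ece1 and Ece2, and 4 of 5 with hormone reads left out, without Ece1. These shares show how widely the cell types differ, and nothing is read from the members' counts beside them.

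The promoters of Ednra and Ednrb, which were high in the same cell type, are shown beside that of Edn3, which was not, as 300 bases from 250 before to 50 after the RefSeq start site (GRCm38.p6), along the strand of the gene. The windows are chr2:174760369-174760668 on the plus strand (Edn3), chr8:77724403-77724702 on the minus strand (Ednra) and chr14:103843652-103843951 on the minus strand (Ednrb). Both strands were searched for TAATTA, a core of homeodomain factors, TGCTGA, part of the Maf site, CAGATG, an E-box of neurogenic factors, and TATAAA. Capitals mark the matches.
Edn3: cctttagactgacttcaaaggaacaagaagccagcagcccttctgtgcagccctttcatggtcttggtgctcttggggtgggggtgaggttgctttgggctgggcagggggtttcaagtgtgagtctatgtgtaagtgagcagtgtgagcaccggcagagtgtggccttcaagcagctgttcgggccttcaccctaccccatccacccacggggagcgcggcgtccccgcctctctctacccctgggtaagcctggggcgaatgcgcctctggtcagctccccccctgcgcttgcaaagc
Ednra: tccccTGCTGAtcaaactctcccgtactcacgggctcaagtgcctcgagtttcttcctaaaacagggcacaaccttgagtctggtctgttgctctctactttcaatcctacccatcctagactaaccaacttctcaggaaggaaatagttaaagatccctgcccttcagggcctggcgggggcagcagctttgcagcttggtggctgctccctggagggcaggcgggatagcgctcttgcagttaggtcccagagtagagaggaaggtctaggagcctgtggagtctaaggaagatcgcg
Ednrb: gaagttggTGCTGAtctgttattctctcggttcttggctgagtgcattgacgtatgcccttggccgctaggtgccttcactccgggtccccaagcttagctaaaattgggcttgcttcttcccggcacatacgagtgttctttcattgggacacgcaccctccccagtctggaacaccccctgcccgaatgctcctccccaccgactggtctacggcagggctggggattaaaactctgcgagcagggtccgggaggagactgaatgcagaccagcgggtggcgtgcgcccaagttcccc
TGCTGA was found once in each receptor window, at position -245 for Ednra and -242 for Ednrb, and in 19.5% of 32817 RefSeq promoters of the same length. It was also in 1 of the 4 promoter windows of Ece1 (position -204), which was transcribed in all sorts. The Edn3 window held none of the 4 words. TAATTA was present in 5.3%, CAGATG in 17.2% and TATAAA in 13.6% of promoters. The windows were 61%, 54.7% and 58.7% G and C for Edn3, Ednra and Ednrb, against a median of 52.7%.

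Sex was the comparison that the choice of the genes did not use. In the fit over all 10 libraries with cell type as a term, 0 of 5 members differed between females and males at an adjusted p under 0.05 in limma, and 0 had an unadjusted p under 0.05. Of all tested genes 0.0472% were called, and 4.99% had an unadjusted p under 0.05. The largest female minus male difference was that of Ece1, at 0.19 on the log2 scale (SE 0.11, adjusted p = 0.77 by limma), with differences of 0.04 within delta, 0.31 within beta and 0.07 within alpha cells. Without beta replicate 2, a female library, the Ece1 difference was 0.1, below those of Edn3 (0.16) and Ednrb (0.12) in that fit. Over all 10 libraries Edn3 differed by 0.12 (SE 0.15, adjusted p = 0.826 by limma), Ednrb by 0.08 (SE 0.13, adjusted p = 0.859) and Ednra by -0.02 (SE 0.1, adjusted p = 0.954). In alpha and beta libraries a test of whether the sex difference depended on cell type called 0 of the 3 members that passed the filter there, Edn3, Ece1 and Ece2, and 0% of all genes by limma (unadjusted p under 0.05 in 0 members and 1.05% of genes). Alpha and delta cells had 1 female library each, so sex differences within them rest on single libraries.

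Other genes around the pathway were taken from 4 lists: proteases that process or clear endothelins, signalling behind the receptors, regulators of endothelin genes, and other vasoactive genes. Of 62 genes, 61 are in the table and 44 passed the filter. In limma at an adjusted p under 0.05, delta cells exceeded beta cells for 20 of the 44 and fell below them for 8, or 45.5% and 18.2%, beside 37.4% and 13.3% of all tested genes. The median log2 difference was 0.3, against 0.25 over all genes. Between alpha and beta cells 12 were higher and 14 lower (27.3% and 31.8%, against 23.7% and 30.3% of all genes, medians -0.1 and -0.02). Between delta and alpha cells 20 were higher and 5 lower (45.5% and 11.4%, against 32.1% and 5.89%, medians 0.42 and 0.26). Without delta replicate 1 the higher counts fell to 9 against beta and 7 against alpha cells, and without delta replicate 2 to 12 and 13. Median-ratio scaling gave 12 and 10.

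**Figure D5:**
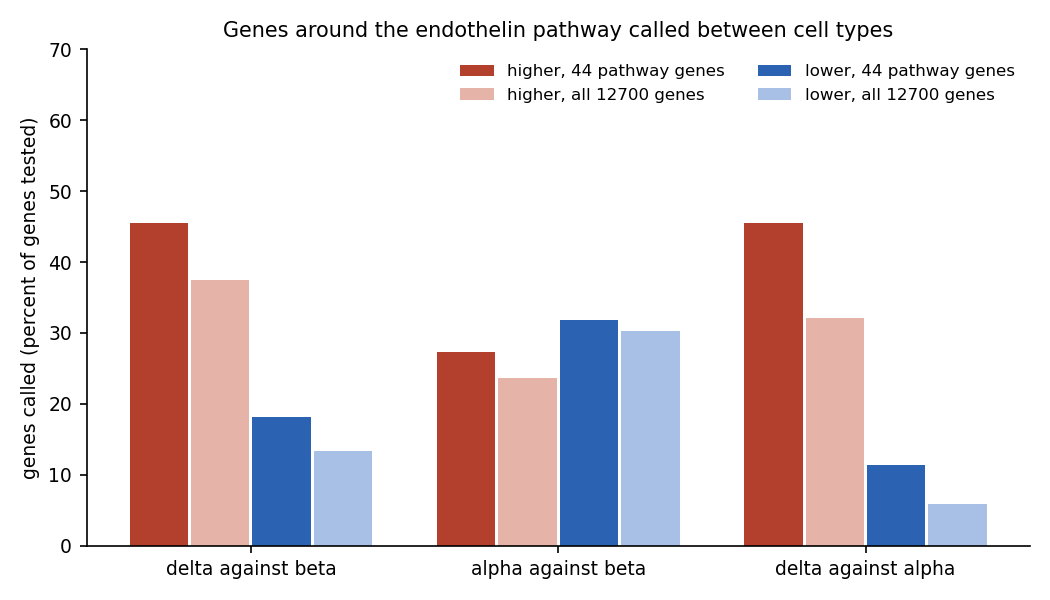
Percent of tested genes called higher or lower by limma (adjusted p under 0.05) in each comparison of cell types, for the 44 genes around the endothelin pathway (dark) and for all 12700 tested genes (light). The widest gap is among genes higher in delta than in alpha cells, 45.5% of the pathway genes and 32.1% of all.

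Of 26 tested signalling genes, limma called 12 higher in delta than in beta (46.2%, beside 37.4% of all tested genes) and 5 lower (19.2%, beside 13.3%). Itpr1, the calcium release channel opened by inositol trisphosphate, had means of 80.2 RPKM for delta, 5.7 for beta and 45.1 for alpha libraries (delta minus beta 3.68, SE 0.23, adjusted p = 1.87e-06 by limma). The phospholipase gene Plcb4 averaged 22.5 against 5.41 RPKM (2.01, SE 0.32, adjusted p = 0.000908). The receptor kinase Grk5 went the other way, with 2.05 against 12.5 RPKM (-2.11, SE 0.17, adjusted p = 1.09e-05). Gna11, an alpha subunit of the Gq family, stood at 41.4 and 46.2 RPKM (adjusted p = 0.247), and passed the threshold as lower in delta cells after median-ratio scaling and with hormone reads left out. Rgs4, a brake on Gq and Gi signalling, stood at 102 and 109 RPKM (adjusted p = 0.849).

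Gnai3, a Gi subunit, had means of 39 RPKM for delta, 72.5 for beta and 34.7 for alpha libraries. Its delta minus beta difference of -0.8 (SE 0.3) missed the threshold narrowly (adjusted p = 0.0501 by limma) and passed it in 6 of 18 other settings. Alpha cells were set apart by other G protein genes. Gnai1 had a mean of 42.5 RPKM for alpha libraries, next to 4.02 for beta and 6.75 for delta (alpha minus beta 3.19, SE 0.27, adjusted p = 1.35e-05 by limma). Gnai2, the most abundant Gi subunit here, had a mean of 149 RPKM for alpha and 516 for beta libraries (-1.81, SE 0.1, adjusted p = 7.93e-07). In the alpha and beta comparison 6 of the 26 signalling genes were called higher and 9 lower (23.1% and 34.6%, beside 23.7% and 30.3% of all tested genes).

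Between delta and alpha cells, limma called 13 of the 26 signalling genes higher in delta (50%, beside 32.1% of all tested genes) and 4 lower (15.4%, beside 5.89%). Arrb1, a beta-arrestin that ends receptor signalling, averaged 3.66 RPKM in delta and 0.403 in alpha libraries (1.73, SE 0.1). Like the endothelin receptors, Arrb1 passed the filter through the delta libraries alone, the cell type in which it was high. Its call is among the 13 but is given without a p-value. Rgs2, a brake on Gq, averaged 30.5 and 7.52 RPKM (1.93, SE 0.23, adjusted p = 2e-04 by limma). Gnai1 was lower in delta (-2.48, SE 0.33, adjusted p = 0.000388). Gnao1, the alpha subunit of Go, stood at 124 and 92.9 RPKM (adjusted p = 0.0544) and passed the threshold in 4 of 18 other settings.

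Few proteases that process or clear endothelins passed the filter, namely Furin, Pcsk6 and Pcsk7, 3 of the 9 in the table. Furin, the protease that releases big endothelin, had means of 23.9 RPKM for delta, 19.4 for beta and 20.5 for alpha libraries. Delta minus beta was 0.3 (SE 0.09, adjusted p = 0.0207 by limma), and alpha minus beta 0.11 (SE 0.08, adjusted p = 0.291). The first of these calls was lost in 7 of 18 other settings, among them median-ratio scaling (0.015, adjusted p = 0.927) and each of the fits without 1 delta library (adjusted p = 0.157 without replicate 1 and 0.103 without replicate 2). Pcsk6, another convertase, had means of 4.98 RPKM for alpha, 15.9 for beta and 17 for delta libraries (alpha minus beta -1.45, SE 0.1, adjusted p = 2.87e-06).

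Among the regulators of endothelin genes, limma called 5 of 8 tested higher and 0 lower in delta against beta cells, beside 37.4% and 13.3% of all tested genes. In alpha against beta cells 4 were called higher and 1 lower, beside 23.7% and 30.3%. Nothing particular to lists of 8 genes is read from these counts. Jun, part of the AP-1 factor that activates Edn1, had means of 201 RPKM for delta, 36.4 for beta and 108 for alpha libraries (delta minus beta 2.42, SE 0.16, adjusted p = 3.51e-06 by limma). Fos, its partner, averaged 391, 81.9 and 95.2 RPKM in the same order (2.41, SE 0.42, adjusted p = 0.00142). Epas1, a hypoxia-inducible factor, averaged 4.72, 0.207 and 1.14 RPKM (2.18, SE 0.24, adjusted p = 8.82e-05). Against alpha cells the delta differences of Fos (2, adjusted p = 0.00773) and Epas1 (1.39, adjusted p = 0.00297) were not called without delta replicate 1, at adjusted p = 0.135 and 0.0609 by limma. Hif1a, another such factor, was called in no comparison, with means of 29.2, 28.7 and 33.3 RPKM. Sox10, which activates Ednrb in neural crest cells, did not pass the filter.

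Of 7 vasoactive genes tested, 2 were called higher and 3 lower in delta against beta cells, beside 37.4% and 13.3% of all tested genes. The counts for alpha against beta cells were also 2 and 3, beside 23.7% and 30.3%. Vegfa, the angiogenic factor of islets, stood at 143, 119 and 116 RPKM in delta, beta and alpha libraries and was not called in any comparison. Vegfc, the factor of lymphatic vessels, averaged 2.77, 0.39 and 2.6 RPKM (alpha minus beta 1.38, SE 0.11, adjusted p = 8.99e-06 by limma).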

How the data were processed

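RNA of sorted delta (2 libraries), beta (5) and alpha cells (3) was analysed from 1 table in which the authors deposited RPKM values for 19213 gene entries. The submitters' processing notes name STAR 2.4, featureCounts, edgeR 3.12.0 and the build GRCm38.p3. The annotation, the strand setting of the counting, how reads shared by genes were treated and whether a scaling factor entered the RPKM are not known from the labels. The library totals recovered from the values lay within 0.0004 of whole numbers, as plain read totals would. Library totals and the members' reads were recovered from the steps of the RPKM values. The length of each member was fitted so that its values became whole reads, so the whole reads of all 70 member values are no separate check. The fitted lengths differed from those of GENCODE M21, for Edn3 with 2978 against 4113 bases. A count of 0 allows up to 3 reads, and such limits cover counting error only.

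Values were fitted as log2(RPKM + 1) in limma 3.58.1 (R 4.3.3) with a mean-variance trend, with cell type and sex as terms and all 10 libraries, which leaves 6 residual degrees of freedom. Genes with at least 1 RPKM in at least 2 libraries were fitted (12700), among them 5 of the 7 members. P-values were adjusted by Benjamini-Hochberg over all tested genes. Spearman correlations were 0.959 to 0.991 within cell types and at most 0.908 between them.

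The members and lists were chosen with earlier results of these data known. Named genes are the members, up to 6 called genes with the largest differences and up to 4 uncalled genes with the highest means from the lists per comparison, the 5 (Edn3) or 3 genes most correlated with a member, the 3 nearest listed genes on each side of Edn3, the sorted hormones and up to 3 markers per list. Named after their values were seen were Pcsk7, Sox10, Esam and the values of Furin, Hif1a, Vegfc and Pcsk6 outside the comparisons for which the rule named them. The levels of some single markers are not reported here. Other marker lists were summed as well. Delta, beta and alpha libraries held 75.8 to 88.8, 104 to 189 and 22.9 to 41.4 RPKM of 10 immune markers, 658 to 844, 201 to 9860 and 84.7 to 3090 of 8 acinar markers, and 344 to 414, 548 to 715 and 843 to 1950 of 7 ductal markers. Markers of the sorted types summed to 54400 to 63000 RPKM (delta list in delta), 213000 to 432000 (beta list in beta) and 250000 to 280000 (alpha list in alpha libraries). Gene coordinates come from GENCODE M21 (GRCm38), matched by symbol, and promoters from RefSeq, where all 7 members matched. Alternatives were a pseudocount of 0.25, no filter, median-ratio scaling, scaling without the reads of 7 islet hormone genes, no sex term, fits of 2 cell types, leaving out each library, removal of an alpha share set by Gcg, and a block of libraries with consecutive title numbers.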

Additional observations from a re-analysis of the deposited data

Results flagged for a closer look

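Of the members and named pathway genes, 26 in all, 1 had a beta library far from the other 4: Ece1 stood at 162 RPKM in beta replicate 2 against 103 to 118 in the others, a gap of 0.746 of the group's whole range. Chance alone flags about 1 in 20 such groups.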

How the results depend on the processing

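The titles hold running numbers, none shared by 2 cell types. Within a cell type, beta 4 and beta 5, both female, share a number apart from an added letter, as do alpha 1 and alpha 2, both male. These were fitted as separate libraries, though they may not be independent. Across cell types, 4 pairs of libraries of one sex have consecutive numbers (beta 1 with delta 1, beta 2 with delta 2, beta 3 with alpha 2, beta 5 with alpha 3). The labels do not say what the numbers mark. Deviations from the cell type means correlated by 0.00144, 0.372, 0.269 and 0.464 in these 4 consecutive pairs, sex included. The deviations of the 2 delta libraries mirror each other, so the first 2 values are not independent. No unmatched libraries were compared as a baseline, so the values cannot decide on a shared source, and none was taken as given. A fit with the 4 pairs as a replicate block in place of sex, chosen after seeing the data, has 2 residual degrees of freedom. It gave Edn3 2.92 (delta minus beta), 5.21 (alpha minus beta) and -2.29 (delta minus alpha), Ece2 -0.19 (alpha minus beta) and 0.73 (delta minus alpha), and Ednra -0.01 (alpha minus beta) and 2.07 (delta minus alpha). With the block, Hif1a (0.53, delta minus alpha) and Rgs4 (0.099, delta minus beta) changed sign, Fos (delta minus alpha) and Furin (delta minus beta) were no longer called, at adjusted p = 0.0985 and 0.0819 by limma, and 3 further differences were called, Vegfa in delta minus beta and delta minus alpha (0.017 and 0.0411) and Gnai3 in delta minus alpha (0.00374).

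Without single libraries, delta minus beta ran from 1.8 to 2.12 for Ednra and 1.32 to 1.73 for Ednrb, and delta minus alpha from 1.68 to 2 and 1.35 to 1.77, the ends being the fits without a delta library, in which both receptors were kept despite the filter. Other differences of members between cell types moved by less than the spread between replicates. The Ednrb difference of alpha minus beta, near 0, ran from -0.15 to 0.11. With a pseudocount of 0.25, delta minus beta was 3.6 for Edn3, 3.07 for Ednra and 2.37 for Ednrb, alpha minus beta 6.59 for Edn3 and 0.33 for Ednra, and delta minus alpha 2.75 for Ednra and 2.45 for Ednrb. With median-ratio scaling, delta minus beta was 0.28 for Ece1, 0.31 for Ece2 and 1.77 for Ednra, and delta minus alpha 0.96, 0.66 and 1.62, and -3.16 for Edn3. With hormone reads left out, delta minus beta was 0.35 for Ece1 and 0.38 for Ece2, delta minus alpha 0.95 and 0.67, and -3.22 for Edn3, and alpha minus beta 5.91 for Edn3. After removal of an alpha share by Gcg, chosen after seeing the data, Edn3 stood at 1.67 for delta minus beta, 5.92 for alpha minus beta and -4.25 for delta minus alpha. The cause was not tested.

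The median log2 difference over all genes was 0.253 for delta minus beta and 0.26 for delta minus alpha, and moved to -0.005 and -0.013 with median-ratio scaling and to 0.057 and -0.025 with hormone reads left out. Of all calls, 73.7% (delta against beta), 43.9% (alpha against beta) and 84.5% (delta against alpha) were higher, against 49.7%, 48.9% and 57.8% with median-ratio scaling and 54.8%, 55% and 56.4% with hormone reads left out. Pathway genes higher in delta than in beta cells numbered 12 with median-ratio scaling and 9 to 21 without single libraries. For delta against alpha cells they numbered 10 with median-ratio scaling, 11 with hormone reads left out and 7 to 24 without single libraries.

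Uncalled differences changed sign. Female minus male was -0.032 for Edn3 with the alpha share removed, and for Ece2 -0.041 with median-ratio scaling and -0.059 with hormone reads left out. Without single libraries it ran from -0.06 to 0.071 for Ece2, -0.088 to 0.053 for Ednra and -0.015 to 0.17 for Ednrb. Vegfa gave -0.033 (delta minus beta) and -0.0074 (delta minus alpha) with median-ratio scaling, and 0.053 (alpha minus beta) and -0.019 (delta minus alpha) with hormone reads left out. Gnai3 gave -0.15 and -0.17 for delta minus alpha in those settings. Without single libraries Vegfa ran from -0.19 to 0.12 (alpha minus beta), -0.043 to 0.6 (delta minus alpha) and -0.046 to 0.6 (delta minus beta), Gnai3 from -0.0017 to 0.28 (delta minus alpha) and Rgs4 from -0.29 to 0.16 (delta minus beta).

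Depth limited Edn1 and Edn2, of which a library held at most 13 and 15 reads.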
